A study of Arabidopsis thaliana with 6 samples.

Results

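The cytosolic chaperonin CCT, also called TCP-1 ring complex, is encoded in Arabidopsis thaliana by 9 genes, chosen by their gene identifiers from a count table of 32833 genes. All 9 were found, and all 9 passed the filter on low counts. The gene names CCT1 to CCT8 were given with the family, and the reference annotation names only the first of them (TCP-1). The family itself was selected on the log2 fold changes of its transcripts between gbpl3 and Col-0, which were known beforehand, so that difference is described for its members and not used as evidence.

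CCT is a barrel of stacked rings in the cytosol of all eukaryotes. Each ring holds 8 different subunits at fixed positions, and ATP binding and hydrolysis drive the closing of the chamber around an unfolded protein. Its best known substrates are tubulin and actin, which are handed over by the cochaperone prefoldin, and certain WD40 repeat proteins. In Arabidopsis, CCT8 is known for its role in the cell-to-cell movement of KNOX homeodomain proteins in the shoot meristem.

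Strand-specific mRNA libraries were made from entire seedlings at the age of 7 days, 3 from the gbpl3 mutant and 3 from the Col-0 wild type. Seedlings received no treatment and grew on MS medium of 0.5 strength with 1% sucrose, and about 50 mg of tissue went into each extraction. GBPL3 belongs to the guanylate-binding-like GTPases, and the series title places it at the nuclear basket of the nuclear pore. The labels do not describe the allele, and they number the mutant libraries 1 to 3 within the genotype name. Since the design mentions triplicates, the numbers were taken as replicate numbers. No label says whether replicates were grown separately, so p-values measure only the spread between these libraries, which may be technical. Total counts ran from 10836165 to 12911891 in gbpl3 and from 9530643 to 12104120 in Col-0. GBPL3 itself (AT5G46070) had 156, 243 and 168 counts in gbpl3 and 790, 827 and 646 counts in Col-0, so its transcript was reduced and still present.

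The 9 genes lie on chromosomes 1, 3 and 5 of the TAIR10.1 assembly. CCT1 (AT3G20050) spans 6998159 to 7002435 on chromosome 3 with 17 coding exons. CCT4 (AT3G18190), at 6232108 to 6234183 on the same chromosome, has 1 exon and no intron. CCT6A (AT3G02530, chromosome 3, 528526 to 532612) and CCT6B (AT5G16070, chromosome 5, 5247354 to 5251179) both have 15 coding exons and both encode the CCT6 subunit. From the annotated coding sequences, the proteins are 527 to 557 residues long. The CCT6A and CCT6B proteins were 96.1% identical, whereas the other 35 pairs of subunits were 23.8% to 35.5% identical, with a median of 28.2%. In their coding sequences CCT6A and CCT6B were 88.7% identical and shared no exact run longer than 35 bases, against reads of 150 bases. Reads that match both could still be split differently by the authors' counting, so the separate levels of this pair are less certain than their sum.

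The promoter sequences of the family are shown because a short element recurs in 6 of the 9. The element is site II, written TGGGCC or TGGGCT and read on both strands, which is known in plants as a binding site of TCP transcription factors and is common upstream of ribosomal protein genes. In the 250 bases upstream of the annotated gene start, site II was found in 6 of the 9 genes and in 19.2% of 27437 protein-coding nuclear genes. TGGGCC alone was found in 6 of 9 and in 13.7% of all genes, and TGGGCT alone in 5 of 9 and in 12.3%. The telo box AAACCCT, also common upstream of ribosomal protein genes, was found in 1 of 9 and in 7.33% of all genes. The E2F-type motifs TTTCCCGC and TTTGGCGC occurred in 0 of the 9 windows and in 0.959% of all. The heat shock element, searched as 3 alternating units of GAA and TTC with 2 bases between them, occurred in 0 of 9 and in 0.386% of all. The motifs found in the 9 windows did not overlap one another. The 120 bases before the gene start are given 5′ to 3′ on the strand of the gene, with site II and telo box letters in capitals, for the 6 genes with site II and for CCT6B as the counterpart of CCT6A.
CCT1, chr3:7002436-7002555, minus strand: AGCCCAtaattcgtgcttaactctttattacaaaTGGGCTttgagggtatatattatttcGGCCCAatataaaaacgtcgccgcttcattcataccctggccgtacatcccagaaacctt
CCT3, chr5:9259029-9259148, minus strand: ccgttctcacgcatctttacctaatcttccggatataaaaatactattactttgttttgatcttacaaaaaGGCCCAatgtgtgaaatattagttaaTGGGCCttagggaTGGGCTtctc
CCT4, chr3:6231988-6232107, plus strand: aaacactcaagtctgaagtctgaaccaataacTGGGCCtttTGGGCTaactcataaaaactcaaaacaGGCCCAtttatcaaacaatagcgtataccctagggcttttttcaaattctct
CCT5, chr1:8688248-8688367, minus strand: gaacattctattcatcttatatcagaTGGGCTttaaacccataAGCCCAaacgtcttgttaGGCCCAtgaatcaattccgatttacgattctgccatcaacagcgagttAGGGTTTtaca
CCT6A, chr3:532613-532732, minus strand: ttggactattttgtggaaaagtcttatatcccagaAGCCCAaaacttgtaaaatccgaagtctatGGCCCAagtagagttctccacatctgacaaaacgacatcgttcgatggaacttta
CCT8, chr3:1024024-1024143, plus strand: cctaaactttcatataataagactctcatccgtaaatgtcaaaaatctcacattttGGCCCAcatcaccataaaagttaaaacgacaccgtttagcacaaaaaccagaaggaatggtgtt
CCT6B, chr5:5251180-5251299, minus strand: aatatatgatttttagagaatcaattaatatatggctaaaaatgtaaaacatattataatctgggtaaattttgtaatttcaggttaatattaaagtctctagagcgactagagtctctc
CCT1, CCT3, CCT4 and CCT5 had 3 matches to site II each, CCT6A had 2 and CCT8 had 1. CCT6B, CCT2 and CCT7 had none in 250 bases. A match of letters is a description of the sequence and shows no binding, and its relation to the transcript levels was not tested.

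**Figure D1:**
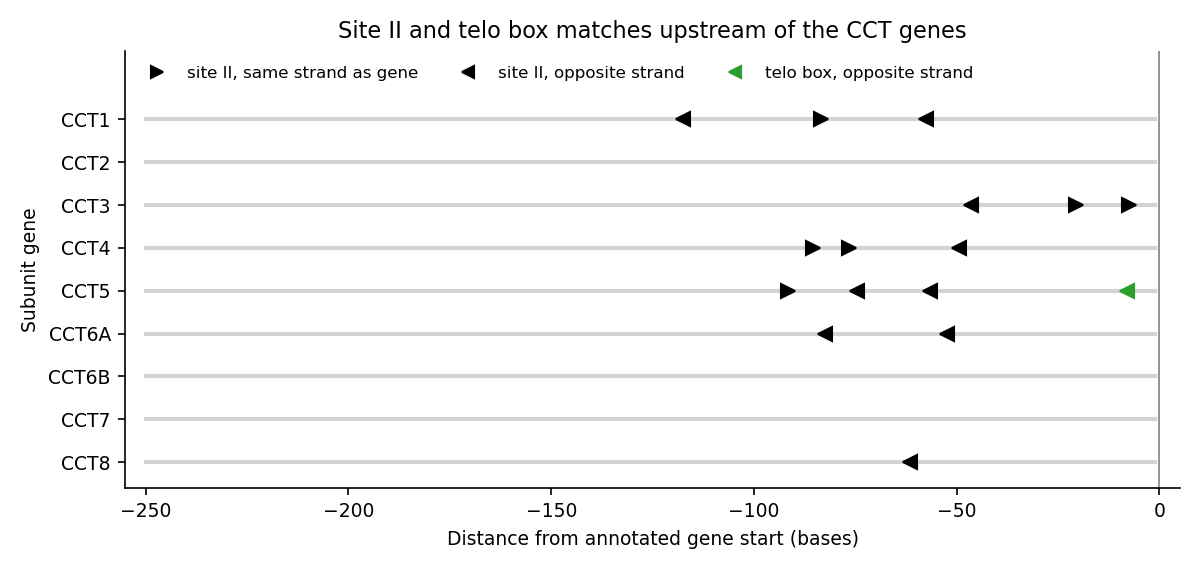
Matches to site II (black) and the telo box (green) in the 250 bases upstream of each CCT gene, against the distance from the annotated gene start in bases, with arrowheads for the strand. Site II matches lie within 120 bases of the start in CCT1, CCT3, CCT4, CCT5, CCT6A and CCT8, and CCT2, CCT6B and CCT7 have none.

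Levels below are CPM, that is counts scaled to library size and composition, and fold changes are log2 values of gbpl3 over Col-0 from edgeR's quasi-likelihood fit over 20677 genes, with their SE. All 9 subunits had lower mean levels in gbpl3 than in Col-0. The log2 fold changes ran from -0.37 to -0.19 with a median of -0.32, against a median of -0.0034 over all genes tested, of which 50.5% had a negative value. In whole seedlings, fewer cells rich in CCT transcripts and less CCT transcript per cell cannot be told apart.

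In yeast, CCT1, CCT2, CCT4 and CCT5 form the side of the ring that binds ATP with high affinity. CCT1 had 159, 166 and 149 CPM in gbpl3 replicates 1 to 3 and 224, 194 and 194 CPM in Col-0 replicates 1 to 3 (log2 fold change -0.37, SE 0.10). CCT2 (AT5G20890) had 177, 182 and 168 CPM in gbpl3, against 232, 207 and 219 CPM in Col-0 (log2 fold change -0.32, SE 0.10). For both genes every gbpl3 library was below every Col-0 library. CCT4 had 105, 100.2 and 84.1 CPM in gbpl3 and 119, 111 and 118 CPM in Col-0 (log2 fold change -0.27, SE 0.10). CCT5 (AT1G24510) had 179, 191 and 170.5 CPM in gbpl3 and 233, 172 and 211 CPM in Col-0 (log2 fold change -0.19, SE 0.11). The groups did not overlap for CCT4, but they did for CCT5, where Col-0 replicate 2 lay below gbpl3 replicates 1 and 2. CCT5 had the smallest change of the family, and without Col-0 replicate 1 its log2 fold change was -0.09.

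The remaining subunits, CCT3, CCT6, CCT7 and CCT8, form the side with low ATP affinity in yeast. CCT3 (AT5G26360) had 171, 176 and 157 CPM in gbpl3 and 225, 201 and 206 CPM in Col-0 (log2 fold change -0.33, SE 0.10). CCT7 (AT3G11830) had 133, 129 and 114 CPM in gbpl3, against 164, 158 and 157 CPM in Col-0 (log2 fold change -0.35, SE 0.10). CCT8 (AT3G03960) stood at 123.3, 137 and 114 CPM in gbpl3 and at 166, 150 and 147 CPM in Col-0 (log2 fold change -0.30, SE 0.10). In none of these 3 genes did the genotypes overlap. The sixth subunit comes from a pair of genes. CCT6A had 77.5, 76.7 and 65.5 CPM in gbpl3 and 87.3, 84.4 and 82.8 CPM in Col-0 (log2 fold change -0.21, SE 0.10), with no overlap. CCT6B had 60.0, 63.1 and 51.0 CPM in gbpl3 and 84.5, 62.7 and 74.8 CPM in Col-0 (log2 fold change -0.35, SE 0.12). Here gbpl3 replicate 2 lay just above Col-0 replicate 2.

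**Figure D2:**
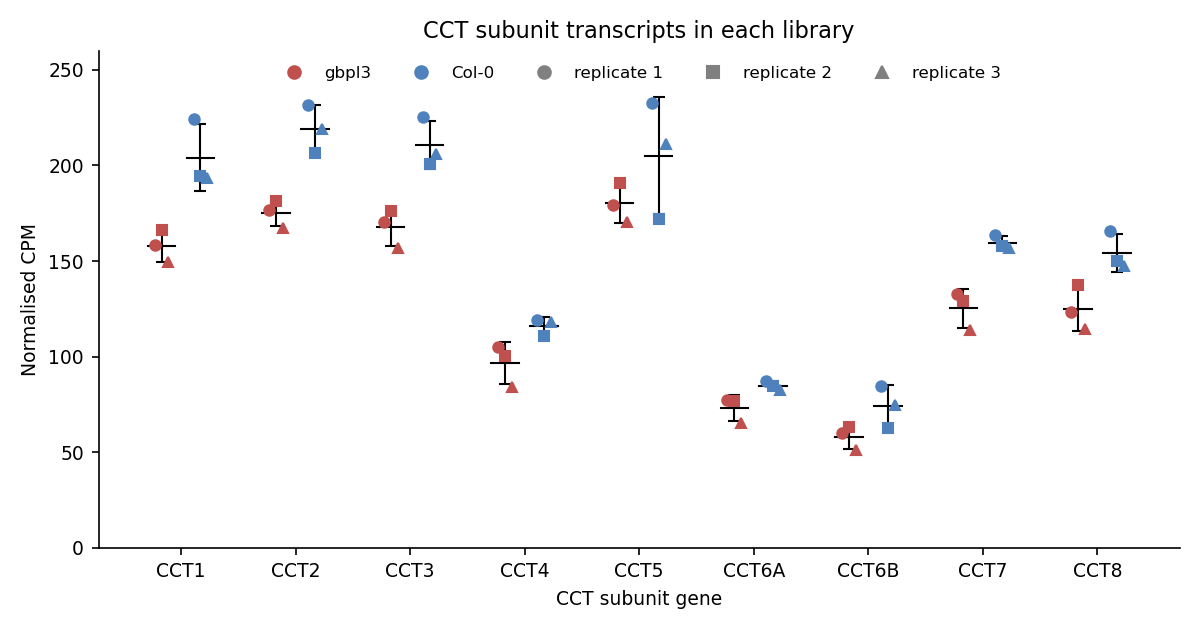
Normalised CPM of each CCT subunit gene in the 6 libraries, gbpl3 in red and Col-0 in blue, with marker shape for the replicate number and black lines for mean ± SD (n = 3). The genotypes separate for 7 genes and overlap for CCT5 and CCT6B, and gbpl3 replicate 3 is the lowest gbpl3 library throughout.

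At an adjusted p under 0.05 (edgeR's quasi-likelihood test, Benjamini-Hochberg over all 20677 genes), 4 of the 9 members were called lower, namely CCT1, CCT2, CCT3 and CCT7, and none higher. Over all genes tested, 4.69% were called lower and 10.7% in either direction. At an unadjusted p under 0.05, 2333 of the 20677 genes were lower and 2557 higher in this fit. Such counts over all genes were not taken for the other fits. For 7 of the 9 members, all gbpl3 libraries lay below all Col-0 libraries, as they did for 13.6% of all genes tested. Since this contrast was known when the family was chosen, nothing is read from these counts. The number of calls depended on which libraries entered the fit. It was 5 without Col-0 replicate 2, 2 without gbpl3 replicate 2, 1 without Col-0 replicate 1, and 0 without gbpl3 replicate 1, gbpl3 replicate 3 or Col-0 replicate 3, where 7, 4 and 6 members had an unadjusted p under 0.05. DESeq2 called 5 members lower, and limma on log2(FPKM + 1) called 0, with 8 at an unadjusted p under 0.05. The direction was negative for all 9 members in each of these fits, which reuse the libraries of the selection.

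Within each genotype, the subunits shared 1 extreme library. In gbpl3, replicate 3 was the lowest library for 9 of 9 subunits, on average by 0.12 below the genotype's mean on the log2 scale. In Col-0, replicate 1 was the highest for 9 of 9, on average by 0.10 above the genotype's mean. The opposite extremes were split. Replicates 1 and 2 were highest for 3 and 6 subunits in gbpl3, and replicates 2 and 3 were lowest for 5 and 4 in Col-0. The share of all genes with the same extreme libraries was not computed. Summed over the family, the level was 1184, 1221 and 1073 CPM in gbpl3 and 1534, 1339 and 1410 CPM in Col-0. The mean was 1160 ± 77.4 CPM in gbpl3 and 1428 ± 98.4 CPM in Col-0 (SD, n = 3 each), a ratio of 0.812. The 6 sums did not overlap between genotypes.

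Length-corrected levels allow subunits to be compared with each other, and they are given as normalised CPM per kilobase of the union of annotated exons. In gbpl3, CCT5 (81.9 ± 4.62) and CCT2 (79.2 ± 3.24) were highest, followed by CCT3 (72.6 ± 4.34) and CCT1 (72.1 ± 3.88). CCT7 (59.8 ± 4.81), CCT8 (56.2 ± 5.21) and CCT4 (46.5 ± 5.33) were lower, and CCT6A (35.8 ± 3.29) and CCT6B (30.0 ± 3.27) lowest. In Col-0 the order was CCT2 (99.0 ± 5.64), CCT5 (93.3 ± 14.0), CCT1 (93.1 ± 7.97) and CCT3 (91.1 ± 5.52), then CCT7 (76.1 ± 1.75), CCT8 (69.4 ± 4.47), CCT4 (55.9 ± 2.19), CCT6A (41.5 ± 1.12) and CCT6B (38.3 ± 5.66). Within either genotype, neighbours among CCT1, CCT2, CCT3 and CCT5 overlapped between libraries, as did CCT6A with CCT6B. CCT7 with CCT8 overlapped in gbpl3 but not in Col-0. CCT4 lay below CCT8 and above CCT6A in all libraries of each genotype.

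Adding CCT6A and CCT6B gave 65.9 ± 6.48 in gbpl3 and 79.8 ± 6.37 in Col-0 on the same per-kilobase scale, which brought the CCT6 position between CCT1 and CCT7. With the pair added, the highest of the 8 ring positions was 1.61 to 1.91 times the lowest in gbpl3 libraries and 1.73 to 1.84 times in Col-0 libraries. The lowest position was CCT4 in all 6 libraries. The share of each subunit in the family's per-kilobase total was compared between genotypes. The largest difference was that of CCT5, with 15.3 ± 0.383% in gbpl3 and 14.1 ± 1.28% in Col-0, and CCT1 had 13.5 ± 0.273% in gbpl3 and 14.2 ± 0.479% in Col-0. For all 9 subunits, the shares overlapped between the genotypes.

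**Figure D3:**
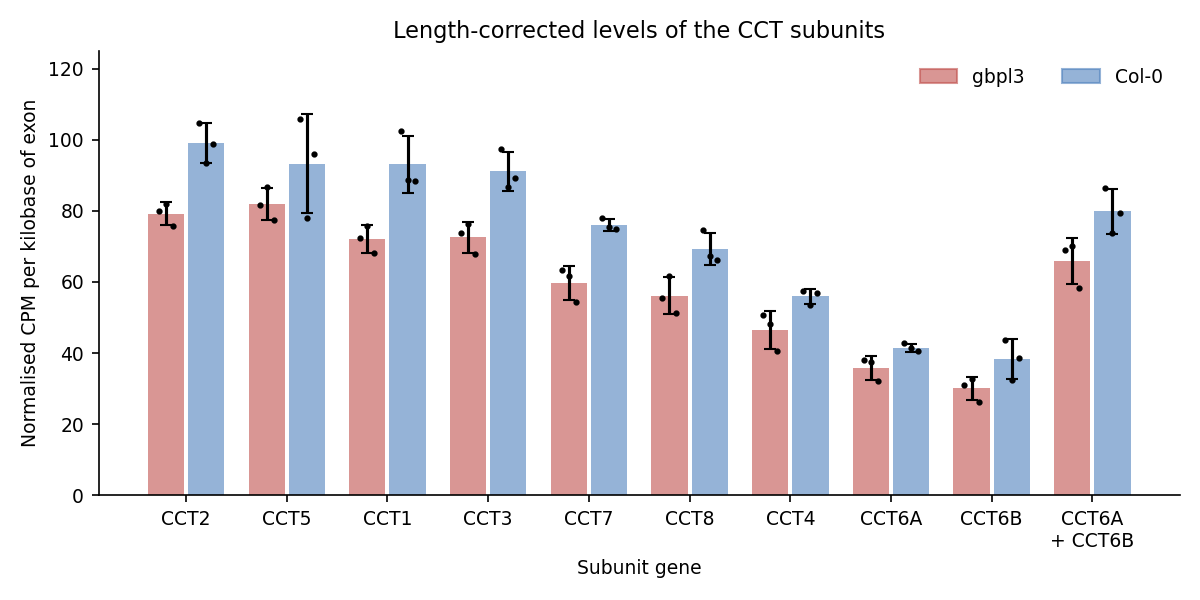
Normalised CPM per kilobase of exon for each CCT gene and for the sum of the CCT6 pair, gbpl3 in red and Col-0 in blue. Bars are means with SD (n = 3) and dots are libraries. CCT2 and CCT5 stand at 79.2 and 81.9 in gbpl3 and at 99.0 and 93.3 in Col-0, and CCT6A and CCT6B reach the level of other subunits only as a sum.

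Of the reads assigned to the CCT6 pair, 56.3%, 54.9% and 56.2% belonged to CCT6A in gbpl3, with exact Clopper-Pearson 95% intervals of 53.7% to 58.9%, 52.5% to 57.2% and 53.4% to 59.0%. In Col-0 they were 50.8% (48.6% to 53.0%), 57.4% (55.1% to 59.7%) and 52.5% (50.0% to 55.0%). The intervals cover counting error only. The genotype means were 55.8 ± 0.819% in gbpl3 and 53.6 ± 3.42% in Col-0 (SD, n = 3 each), and the Col-0 values enclosed all gbpl3 values.

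Reads of neighbouring genes on the opposite strand touch some members, and the strand setting of the authors' counting is not given in the sources used here. CCT6B shares 89 exonic bases with AT5G16060, which had 753 counts in all against 4462 for CCT6B. CCT1 and CCT8 share 27 and 26 bases with neighbours of 317 and 453 counts, and CCT5 shares 1 base with AT1G24490, which had 2366 counts.

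The genes around CCT in protein folding were examined as lists of its cochaperones, substrates and fellow chaperones. Their counts are set beside the 4.69% of all genes called lower and the 6.06% called higher by edgeR, whose adjusted p is used throughout. At an unadjusted p under 0.05 in the same fit, 2333 of the 20677 genes were lower and 2557 higher. The lists were chosen with earlier results of these data known, so their counts are a description and no evidence. None of the 6 prefoldin genes was called, and 1 had an unadjusted p under 0.05, with 0 calls by DESeq2 and by limma on FPKM. A gene not called here or below may still differ by as much as the CCT genes, of which 5 were not called either. All 6 had negative log2 fold changes, with a median of -0.17. The 2 most abundant were PFD3, with 30.7, 28.9 and 30.8 CPM in gbpl3 and 36.7, 33.3 and 34.4 CPM in Col-0 (log2 fold change -0.21, SE 0.11, adjusted p = 0.281), and PFD6 (-0.14, SE 0.12, adjusted p = 0.55). Of 4 cofactor genes (PLP3a and PLP3b, phosducin-like proteins of tubulin folding, the phosphatase regulator TAP46, and the prefoldin-like URI), none was called by edgeR, DESeq2 or limma, and 0 had an unadjusted p under 0.05. TAP46 had a log2 fold change of -0.13 (SE 0.11, adjusted p = 0.521) and PLP3b of -0.23 (SE 0.14, adjusted p = 0.323).

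Tubulins and actins, the main substrates, were listed separately. Of 17 tubulin genes 1 was called lower by edgeR and none higher, with 3 lower and 2 higher at an unadjusted p under 0.05, and the median log2 fold change was -0.03. The called gene was TUB1, a beta-tubulin, with 41.2, 35.2 and 31.1 CPM in gbpl3 and 46.1, 51.8 and 50.3 CPM in Col-0 (log2 fold change -0.46, SE 0.12, adjusted p = 0.0175). Its call ended without gbpl3 replicate 2 (adjusted p = 0.0557), gbpl3 replicate 3 (0.125) or Col-0 replicate 3 (0.0691). DESeq2 called 2 tubulin genes lower and limma none. Summed tubulin levels were 4727, 4556 and 4650 CPM in gbpl3 and 4613, 4878 and 4856 CPM in Col-0, which overlap. The 5 tubulin folding cofactors, which assemble tubulin dimers after CCT release, had log2 fold changes of -0.09 to -0.04, and none was called by edgeR, DESeq2 or limma or had an unadjusted p under 0.05. The most abundant, TFCD and TFCA, stood at -0.08 (SE 0.13) and -0.04 (SE 0.12).

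Actin genes had 2 of 7 tested members lower and none higher, with 1 of the 8 listed genes below the count filter. ACT11 had 24.6, 24.1 and 19.3 CPM in gbpl3 and 37.9, 31.1 and 32.4 CPM in Col-0 (log2 fold change -0.58, SE 0.13, adjusted p = 0.00932). ACT8, a vegetative actin, had 246, 205 and 227 CPM in gbpl3 and 266, 326 and 295 CPM in Col-0 (log2 fold change -0.39, SE 0.11, adjusted p = 0.0239). Neither was called without gbpl3 replicate 3, and 1 was called without gbpl3 replicate 2, Col-0 replicate 2 or Col-0 replicate 3, in each case ACT11. Summed actin levels were 1333, 1306 and 1343 CPM in gbpl3 and 1504, 1583 and 1555 CPM in Col-0, a ratio of 0.858 without overlap. Limma on log2(FPKM + 1) also called 2 actin genes lower. Actin and tubulin genes include near-identical copies, so their separate levels are uncertain.

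WD40 repeat proteins whose relatives fold with CCT in yeast or animals had 5 of 9 members lower and none higher. CDC20.1 and CDC20.2 encode activators of the anaphase-promoting complex. CDC20.1 had 36.8, 39.4 and 34.9 CPM in gbpl3 and 54.5, 53.9 and 56.6 CPM in Col-0 (log2 fold change -0.57, SE 0.10, adjusted p = 0.00182). CDC20.2 had 8.81, 13.0 and 12.8 CPM in gbpl3 and 21.6, 18.5 and 26.0 CPM in Col-0 (log2 fold change -0.92, SE 0.18, adjusted p = 0.00245). RACK1C, a scaffold protein on the small ribosomal subunit, had 74.6, 79.3 and 67.2 CPM in gbpl3 and 129, 109 and 97.9 CPM in Col-0 (log2 fold change -0.60, SE 0.11, adjusted p = 0.0022). The other called members were RACK1A and RACK1B, and the list had 3 calls without gbpl3 replicate 3 and 3 with limma on log2(FPKM + 1). All called members belong to the CDC20 and RACK1 groups, whose copies may share reads. The 4 others were not called, with log2 fold changes of 0.54 for FZR1, 0.15 for AGB1, -0.03 for FZR2 and -0.27 for FZR3. Of the 4 class I KNOX genes, none was called by edgeR, DESeq2 or limma, and 1 was higher at an unadjusted p under 0.05. KNAT1, a regulator of the shoot meristem, had 12.8, 17.1 and 12.5 CPM in gbpl3 and 9.4, 8.5 and 11.7 CPM in Col-0 (log2 fold change 0.53, SE 0.19, adjusted p = 0.0847), and KNAT6 had a log2 fold change of -0.17 (SE 0.23).

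**Figure D4:**
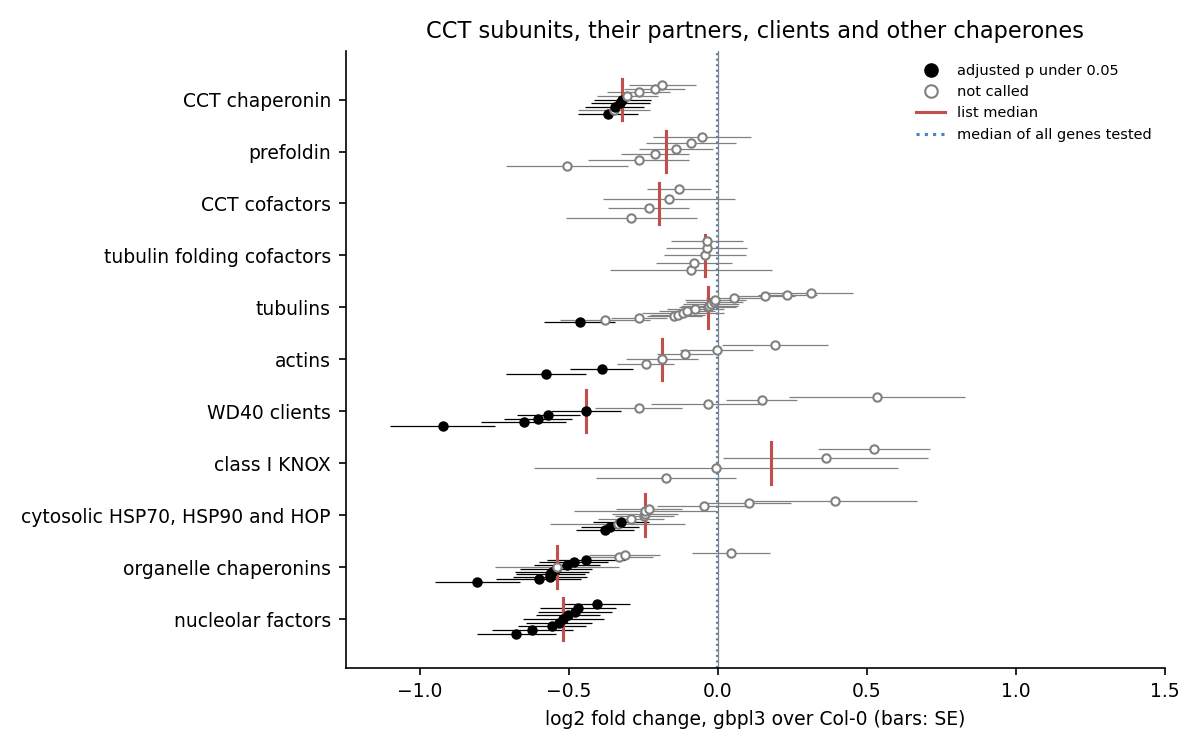
Log2 fold change of gbpl3 over Col-0 with SE for every tested gene of the CCT family and of 10 lists of partners, substrates and other chaperones. Filled points have an adjusted p under 0.05, red bars are list medians, and the dotted line is the median of all genes tested at -0.0034. The CCT median is -0.32, and those of organelle chaperonins and nucleolar factors are -0.54 and -0.52.

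Other chaperones of the cytosol had 3 of 12 members lower and none higher (median log2 fold change -0.25). HSC70-1, the main cytosolic HSP70, had 1461, 1511 and 1353 CPM in gbpl3 and 1938, 1859 and 1824 CPM in Col-0 (log2 fold change -0.38, SE 0.10, adjusted p = 0.0168). HSP90.2 (log2 fold change -0.36, SE 0.10, adjusted p = 0.022) and HSP70-3 (-0.33, SE 0.10, adjusted p = 0.0347) were the other called members. Heat-inducible HSP70-4 (18.4, 17.8 and 20.6 CPM in gbpl3, 22.4, 21.0 and 15.0 CPM in Col-0) and HSP90.1 (11.9, 9.2 and 7.9 CPM in gbpl3, 16.6, 9.1 and 8.6 CPM in Col-0) overlapped between the genotypes. Both were chosen after their values were seen. The list had 2 calls without gbpl3 replicate 2, 1 without Col-0 replicate 1, and 0 without gbpl3 replicate 1, gbpl3 replicate 3 or Col-0 replicate 3. Limma on log2(FPKM + 1) called 1. HSP90.2 has close copies in the list, so its level is uncertain.

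The organelle chaperonins, relatives of bacterial GroEL and GroES in chloroplasts and mitochondria, had 9 of 13 members lower and none higher, with a median log2 fold change of -0.54. CPN60B2, a beta subunit of the chloroplast chaperonin, had 142, 173 and 144 CPM in gbpl3 and 345, 218 and 240 CPM in Col-0 (log2 fold change -0.81, SE 0.14, adjusted p = 0.00122). CPN60A1, the alpha subunit known for its part in Rubisco assembly, had 449, 521 and 442 CPM in gbpl3 and 820, 630 and 636 CPM in Col-0 (log2 fold change -0.56, SE 0.12, adjusted p = 0.00418). CPN60B1 had 425, 564 and 432 CPM in gbpl3 and 810, 660 and 631 CPM in Col-0 (log2 fold change -0.56, SE 0.12, adjusted p = 0.00658). For these 3 genes the genotypes did not overlap. Limma on log2(FPKM + 1) called 3 of the 13. The list had 5 calls without gbpl3 replicate 1 and 4 without gbpl3 replicate 3, and the CPN60B1 call ended without either (adjusted p = 0.0578 and 0.0581).

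All 9 listed nucleolar factors of ribosome biogenesis were called lower by edgeR, with a median log2 fold change of -0.52, and 3 of the 9 by limma on log2(FPKM + 1). FIB2, a fibrillarin that methylates ribosomal RNA, had 68.7, 74.2 and 58.7 CPM in gbpl3 and 132, 90.44 and 99.7 CPM in Col-0 (log2 fold change -0.68, SE 0.13, adjusted p = 0.00294). NOP5-1, of the same box C/D particles, and CBF5, which makes pseudouridine in ribosomal RNA, had log2 fold changes of -0.56 (SE 0.11, adjusted p = 0.00418) and -0.53 (SE 0.11, adjusted p = 0.00465). The list had 6 calls without gbpl3 replicate 1, 4 without gbpl3 replicate 3 and 5 without Col-0 replicate 1. The same libraries were at the extremes here as for CCT. The summed level was lowest in gbpl3 replicate 3 (1131 CPM, against 1216 and 1403 CPM in gbpl3 replicates 1 and 2). It was highest in Col-0 replicate 1 (2070 CPM, against 1636 and 1678 CPM in Col-0 replicates 2 and 3). The WD40 sum (621 and 1070 CPM) and the cytosolic chaperone sum (2409 and 3371 CPM) had both extremes in the same libraries. The sums of the other lists did not have both there. As for CCT, the share of all genes with these extremes was not computed.

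**Figure D5:**
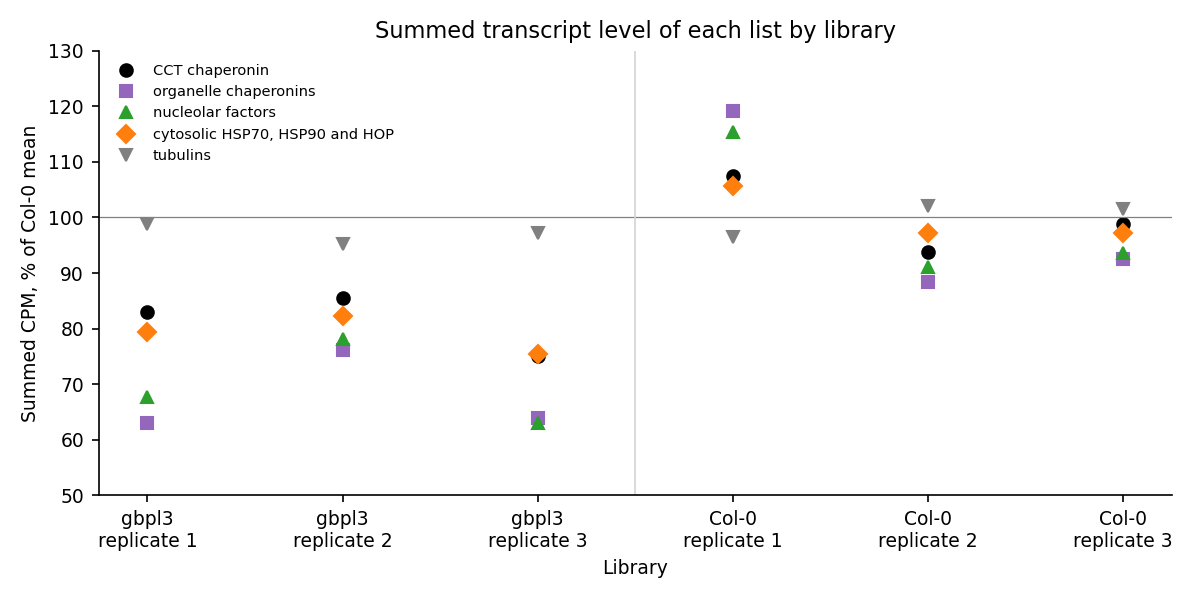
Summed CPM of the CCT genes and of 4 lists in each library, as a percentage of the Col-0 mean of that list, with gbpl3 libraries on the left. The CCT sum (black circles) lies below all Col-0 libraries in each gbpl3 library, and tubulins (grey triangles) overlap between the genotypes.

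Markers of tissue and cell state were set beside the same shares, 4.69% of all genes called lower and 6.06% called higher. The lists differed in direction, with negative log2 fold changes for all 8 dividing-cell genes and positive ones for all 6 green shoot genes. The 8 genes of dividing cells had 1 member lower, CYCB1;2, and none higher, and their summed level was 201 to 210 CPM in gbpl3 and 246 to 274 CPM in Col-0. Of 6 root markers 2 were lower and none higher. The called genes were RCI3 (log2 fold change -1.30, SE 0.14, adjusted p = 9.49e-06) and PIN2 (-0.44, SE 0.12, adjusted p = 0.0301). The summed level of the root list was 3539 to 3766 CPM in gbpl3 and 4401 to 4573 CPM in Col-0. Most of that sum was PYK10, a root beta-glucosidase, with a mean of 3463 CPM in gbpl3 and 4207 CPM in Col-0, which was not called (adjusted p = 0.0696). COBL9 and PHT1;1 had positive log2 fold changes of 0.20 and 0.07. Of 6 markers of green shoot tissue 1 was higher and none lower, with sums of 52690 to 61351 CPM in gbpl3 and 46108 to 52277 CPM in Col-0. Of 9 seed markers 4 passed the filter on low counts, and they passed through their gbpl3 counts, so no test is given for them. Seed sums were 19.1, 95.7 and 224 CPM in gbpl3 and 0.262, 2.05 and 1.53 CPM in Col-0. Replicate 3 of gbpl3, the lowest library for CCT, held the most. Of the other gbpl3 libraries, replicate 2, with the highest CCT sum in that genotype, held more than replicate 1. In Col-0, CRU2, CRU3, SESA1, SESA3 and SESA4 had 0 counts in every library. The part of these markers in the CCT levels was not tested.

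The genes most like the family across the 6 libraries were sought among 12740 others that averaged 10 CPM or more, by Pearson's r of log2 CPM with the mean standardised profile of the 9 subunits. The 5 highest were AT3G51238, a long noncoding RNA gene, CRT1b, a calreticulin of the endoplasmic reticulum, AT4G10450 and AT1G33120, both annotated as ribosomal protein L6 family, and GYRA, an organelle DNA gyrase subunit. Each had an r of 0.996. CRT1b had 153, 163 and 135 CPM in gbpl3 and 207, 176 and 186 CPM in Col-0. AT4G10450 had 42.2, 42.5 and 34.6 CPM in gbpl3 and 67.6, 51.7 and 57.6 CPM in Col-0. As follows from their choice by r, both show the order seen in the CCT genes, with gbpl3 replicate 3 lowest and Col-0 replicate 1 highest. The 9 subunits themselves had r values of 0.812 to 0.992 with the profile they form. Median r was 0.959 for nucleolar factors (range 0.944 to 0.990) and 0.927 for organelle chaperonins (0.158 to 0.994). It was 0.910 for 8 WD40 genes (-0.637 to 0.961) and 0.875 for 5 root markers (-0.460 to 0.917). CCT cofactors (2 genes) had a median of 0.806, and 10 cytosolic HSP70, HSP90 and HOP genes one of 0.803. The median was 0.688 for 5 prefoldin genes, 0.678 for 7 dividing-cell genes, 0.626 for 7 actins and 0.308 for 4 tubulin folding cofactors. It was 0.197 for tubulins (-0.949 to 0.960) and -0.893 for green shoot markers, and the 1 class I KNOX gene compared had -0.548. Over all genes compared the median r was 0.0163, and GBPL3 had an r of 0.885. These correlations share libraries, depth and the genotype difference, and they are given as a description.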

How the data were processed

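The authors deposited raw counts per gene and FPKM values for 6 seedling libraries. Per the submitters' processing notes, reads were processed with HTSeq 0.6.1p1 and HISAT2 2.0.4 on TAIR10. Filters, strand setting and handling of multiply matching reads were not stated. The deposited FPKM equal counts per kilobase of 1 fixed length per gene and of the library total, as recomputed. For CCT5 and CCT7 that length (3519 and 2576 bases) exceeds the exon union (2200 and 2095), so levels per kilobase were computed from counts. Gene positions, exon unions and sequences come from TAIR10.1 (RefSeq), which held 99.1% of the identifiers; for CCT genes with 1 transcript its exon union equalled the deposited length.

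In R 4.3.3, edgeR 4.0.16 filtered genes (filterByExpr, 20677 kept), scaled libraries (TMM) and ran the quasi-likelihood test, with Benjamini-Hochberg adjustment and a threshold of 0.05. The SE is the size of the log2 fold change divided by the square root of F. Identities are from global alignments (Biopython 1.88, BLOSUM62 on translated coding sequences). Replicates differed beyond sampling noise (chi-square over degrees of freedom 4.97 to 14.45), so none was deposited in duplicate.

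The members and lists were chosen with earlier results of these data known. Named were the 9 subunits, GBPL3, up to 3 called members with the smallest adjusted p per list (or the 2 most abundant where none was called), and the 5 genes most alike in profile. HSP70-4, HSP90.1, RACK1A, RACK1B, FZR1, FZR2, FZR3, AGB1, CYCB1;2, RCI3, PIN2, PYK10, COBL9 and PHT1;1 were added after their values were seen. Other settings tried were DESeq2 1.42.0, scaling by RLE or upper quartile, filtering at 1 CPM in 3 libraries or not at all, a replicate block, leaving out single libraries, and limma 3.58.1 with a pseudocount of 1 or 0.1 on deposited FPKM (mean of at least 1, or no filter).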

Additional observations from a re-analysis of the deposited data

How the results depend on the processing

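All 9 CCT subunits had negative log2 fold changes under each of the 15 alternatives. These fits reuse the libraries on whose log2 fold changes the family was selected, so the shared sign is no evidence. The family median ran from -0.39 with limma on log2(FPKM + 0.1) to -0.25 without Col-0 replicate 1. With limma on FPKM the median of all genes was -0.06 to -0.07 with the filter of 1 FPKM. The number of subunits called did change. It was 4 with RLE scaling, upper-quartile scaling or the filter of 1 CPM, 5 with DESeq2, and 6 without a filter. It was 0 with limma on FPKM under either pseudocount or without a filter, where 8 had an unadjusted p under 0.05, and 0 to 5 when single libraries were left out. The genes called in all, 1253 higher and 969 lower, became 424 and 390 with limma on log2(FPKM + 1), 384 and 368 with log2(FPKM + 0.1), and 294 and 227 with log2(FPKM + 1) and no filter. Leaving out single libraries gave 632 to 1429 higher and 326 to 1237 lower. Of 86 tested genes in the 10 lists, 29 were lower and 0 higher. Limma on FPKM called 12, 11 and 1 of them lower under the same 3 settings. Without a filter it called 0 nucleolar factors, 0 organelle chaperonins, 0 cytosolic chaperones and 0 actins. For all 10 lists together, leaving out libraries gave 11 to 29. The cause of these differences was not tested.

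Replicate numbers did not pair the libraries, since deviations of same-numbered libraries correlated at -0.06, -0.09 and 0.04. With the replicate number as a block, 0 subunits were called (7 at an unadjusted p under 0.05), their median was -0.32, and 618 genes were lower. The cytosolic HSP70, HSP90 and HOP list had 0 calls under the block in place of 3, and the actin list had 1 in place of 2. The CCT6A share differed by 2.23 percentage points (gbpl3 minus Col-0), and by 0.847 to 4.14 with single libraries left out.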

Other observations

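The balance between CCT and tubulins, which are among its main substrates, was not part of any comparison above. A ratio of CCT to actin transcripts was not formed. Summed levels in gbpl3 were 0.812 of those in Col-0 for CCT, 0.858 for actins and 0.971 for tubulins. For every 100 CPM of tubulin transcripts there were 25.1, 26.8 and 23.1 CPM of CCT transcripts in gbpl3 and 33.2, 27.5 and 29.0 CPM in Col-0, and the genotypes did not overlap. For every 100 CPM of organelle chaperonin transcripts there were 67.1, 57.2 and 59.9 CPM of CCT transcripts in gbpl3 and 45.9, 54.0 and 54.4 CPM in Col-0, again without overlap. These ratios were formed after the values were seen and from the same contrast, and they carry no test.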
